A study of Mus musculus with 9 samples.

Results

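Chemokine ligands are small secreted proteins that steer leukocytes along concentration gradients by binding G protein-coupled receptors on them. They are sorted by the spacing of their first cysteines into CC, CXC, CX3C and C families. In the heart, inflammatory CC ligands draw monocytes through receptors such as CCR2, CXC ligands with the motif glutamate-leucine-arginine (ELR) draw neutrophils through CXCR2, the ligands of CXCR3 follow interferon gamma and draw T cells, and a homeostatic group that includes Cxcl12 is made by resident cells at rest. The members here were the probe sets whose single annotated symbol was Ccl or Cxcl with a number, Cx3cl1 or Xcl1. The platelet chemokines Ppbp and Pf4 were left out, and the brightest probe set stood for a gene. There were 34 such genes, from 35 probe sets, among 33793 probe sets in all and 23521 with 1 symbol.

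Transcript signals were read from 9 mouse hearts, each on 1 array, at an age of 2 months. The groups were 3 Col4a3-/-OPN-/- hearts, which lacked both a chain of type IV collagen and osteopontin, 3 Col4a3-/- hearts, which lacked the collagen chain alone and model Alport syndrome, a hereditary kidney disease, and 3 wild type hearts. The labels name no treatment, strain, sex or litter, and both deletions are written as plain genotypes with no Cre driver. Each replicate was a separate heart. Per its title, the series concerns heart failure with preserved ejection fraction in this mouse, and an axis of osteopontin and mitochondria. All values are log2 signals made by the authors with RMA (robust multi-array averaging), so that a difference of 1 is a doubling of signal. The level of 1 probe set cannot be set against that of another. A member was called dim when its mean over the 9 hearts was at or below 5.21, the median of all probe sets. Dim members were described and not tested: 21 members were tested and 13 were dim. The member just above this level was Ccl24 (mean 5.29), and the one just below was Ccl17 (mean 5.11).

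The hearts differed in ways that the genotypes do not name. All 6 cardiomyocyte markers were well above 5.21, with a mean of 11.68 to 11.78 in Col4a3-/-OPN-/- hearts, 11.43 to 11.77 in Col4a3-/- hearts and 11.68 to 11.74 in wild type hearts. The probe set of Col4a3 itself was dim (4.87 to 5.26 in Col4a3-/-OPN-/- hearts, 4.96 to 5.27 in Col4a3-/- hearts and 5.07 to 5.52 in wild type hearts), its place relative to the deletion is unknown, and it does not check the labels. The gene of osteopontin was not analysed here, so the OPN-/- label is likewise unchecked in these data. Xist was high and Y-linked genes low in 1 Col4a3-/-OPN-/- heart (replicate 2) and 2 Col4a3-/- hearts (replicates 1 and 3), and in none of the wild type hearts, so sex and genotype were unbalanced. Col4a3-/- replicate 3 stood apart, with a mean Pearson's r with the other arrays of 0.943, against 0.965 to 0.977 for the others. Col4a3-/- replicate 2 carried signals of genes of other tissues: Scgb1a1, a secretory protein of airway epithelium, was 12.21 there, and Ucp1, the uncoupling protein of brown fat, was 11.06. Scgb1a1 was also 9.81 and 9.52 in Col4a3-/-OPN-/- replicates 1 and 3, against 4.54 to 6.10 in the other 6 hearts.

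No chemokine ligand gene passed the test in any comparison. Col4a3-/- hearts were first set against wild type hearts, which addresses the loss of the collagen chain. Limma called 0 of 21 tested members at an adjusted p under 0.05, where 0% of the 13650 probe sets tested were called. At an unadjusted p under 0.05 there were 3 members, Ccl2 and Ccl9 on the higher side and Ccl24 on the lower, which is 14.3% of 21 against a background of 8.35%. The groups did not overlap for 1 tested member, Ccl9 (4.76%), against 12.5% of all probe sets tested. Col4a3-/-OPN-/- hearts were then set against Col4a3-/- hearts, which addresses the added loss of osteopontin. Here 0 of 21 were called against 0.044% of all. Ccl2, Ccl9 and Ccl4 had an unadjusted p under 0.05 and did not overlap, all on the lower side, which is 14.3% of 21 by either rule against backgrounds of 13.6% and 16.5%. With Col4a3-/-OPN-/- set against wild type hearts, 0 of 21 were called, against 0% of all. None had an unadjusted p under 0.05, against 3.68%, and 3 (Cxcl12, Cxcl13 and Cxcl17, all higher) did not overlap, which is 14.3% against 13.2%. A moderated F-test over the 3 genotypes called 0 members, against 0.0147% of all probe sets tested, and the lowest F-test adjusted p among members was 0.356 (Ccl9). The members' shares were thus near or below their backgrounds, apart from the 3 members at an unadjusted p under 0.05 in Col4a3-/- minus wild type.

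The members' signs leaned to the side of higher signal in Col4a3-/- hearts. Over all 34 members, dim ones included, the difference of means was positive in 24 members for Col4a3-/- minus wild type, with a median of 0.094, against 51.1% of all probe sets with 1 symbol and a median of 0.0030. For Col4a3-/-OPN-/- minus Col4a3-/- it was positive in 8 members and negative in 26, with a median of -0.10, against 48.0% positive and a median of -0.0060 over all. For Col4a3-/-OPN-/- minus wild type it was positive in 13 members, with a median of -0.036, against 48.8% and a median of -0.0030. With each array left out, these medians ranged over 0.059 (without Col4a3-/- replicate 3) to 0.14, -0.17 (without Col4a3-/- replicate 1) to -0.089, and -0.077 (without Col4a3-/-OPN-/- replicate 1) to 0.015 (without Col4a3-/-OPN-/- replicate 3). The first and second of these comparisons share the Col4a3-/- hearts. Many members lie next to one another and share inducers, so their signs are not separate observations, and no test was made over the list. When each array was left out in turn, the positive count for Col4a3-/- minus wild type stayed between 20 and 25 (20 without Col4a3-/- replicate 2 and 21 without replicate 3) and that for Col4a3-/-OPN-/- minus Col4a3-/- between 7 and 11 (11 without either of those hearts), while that for Col4a3-/-OPN-/- minus wild type ranged from 8 (without Col4a3-/-OPN-/- replicate 1) to 18 (without Col4a3-/-OPN-/- replicate 3).

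**Figure D1:**
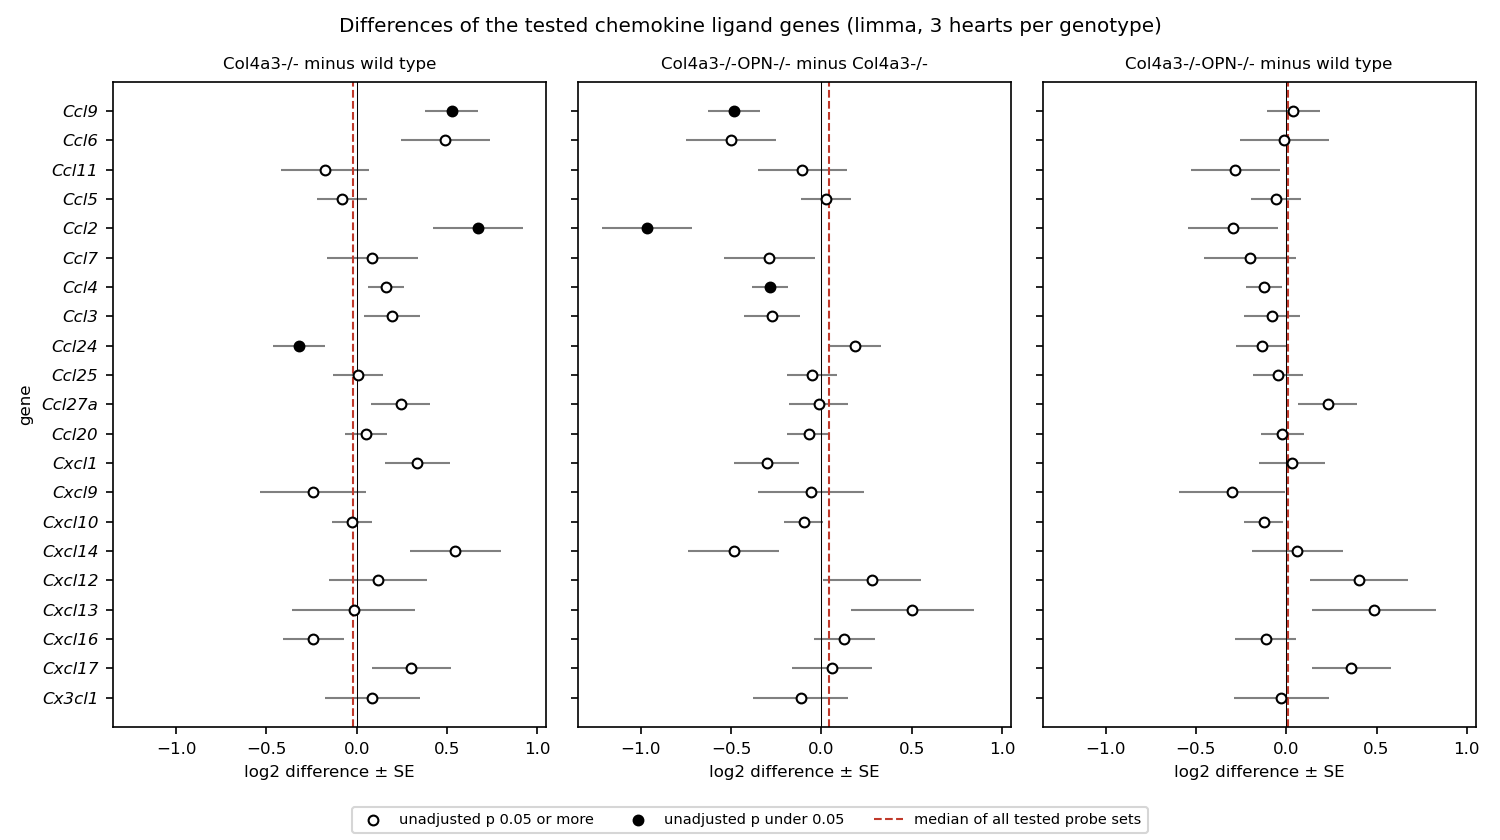
Log2 differences of the 21 tested chemokine ligand genes (points, with the standard error from limma as bars) in the 3 comparisons, with filled points at an unadjusted p under 0.05 and a dashed line at the median of all tested probe sets. Ccl2 and Ccl9 lie right of 0 in Col4a3-/- minus wild type and left of 0 in Col4a3-/-OPN-/- minus Col4a3-/-, and no member passed adjustment.

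Single Col4a3-/- hearts held most of the highest values. Of the 34 members, dim ones included, 10 had their highest signal in Col4a3-/- replicate 2, 10 in Col4a3-/- replicate 3 and 4 in Col4a3-/- replicate 1. Of the 21 tested members, 8 (38.1%) peaked in replicate 2, where 9.52% of all tested probe sets did, and 5 (23.8%) in replicate 3, where 21.3% did. The members that peaked in replicate 2 were Ccl9, Cxcl14, Ccl6, Cxcl13, Ccl2, Cxcl17, Ccl7, Ccl20, Ccl8 and Cxcl15. Those that peaked in replicate 3 were Cx3cl1, Cxcl9, Cxcl1, Ccl3, Cxcl10, Ccl17, Ccl22, Cxcl11, Cxcl2 and Cxcl3. Spread within the Col4a3-/- group was the largest of the 3 for 13 of 21 members (61.9%), much as for all tested probe sets (60.9%). The median SD over members was 0.21 in Col4a3-/-OPN-/- hearts, 0.29 in Col4a3-/- hearts and 0.17 in wild type hearts.

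**Figure D2:**
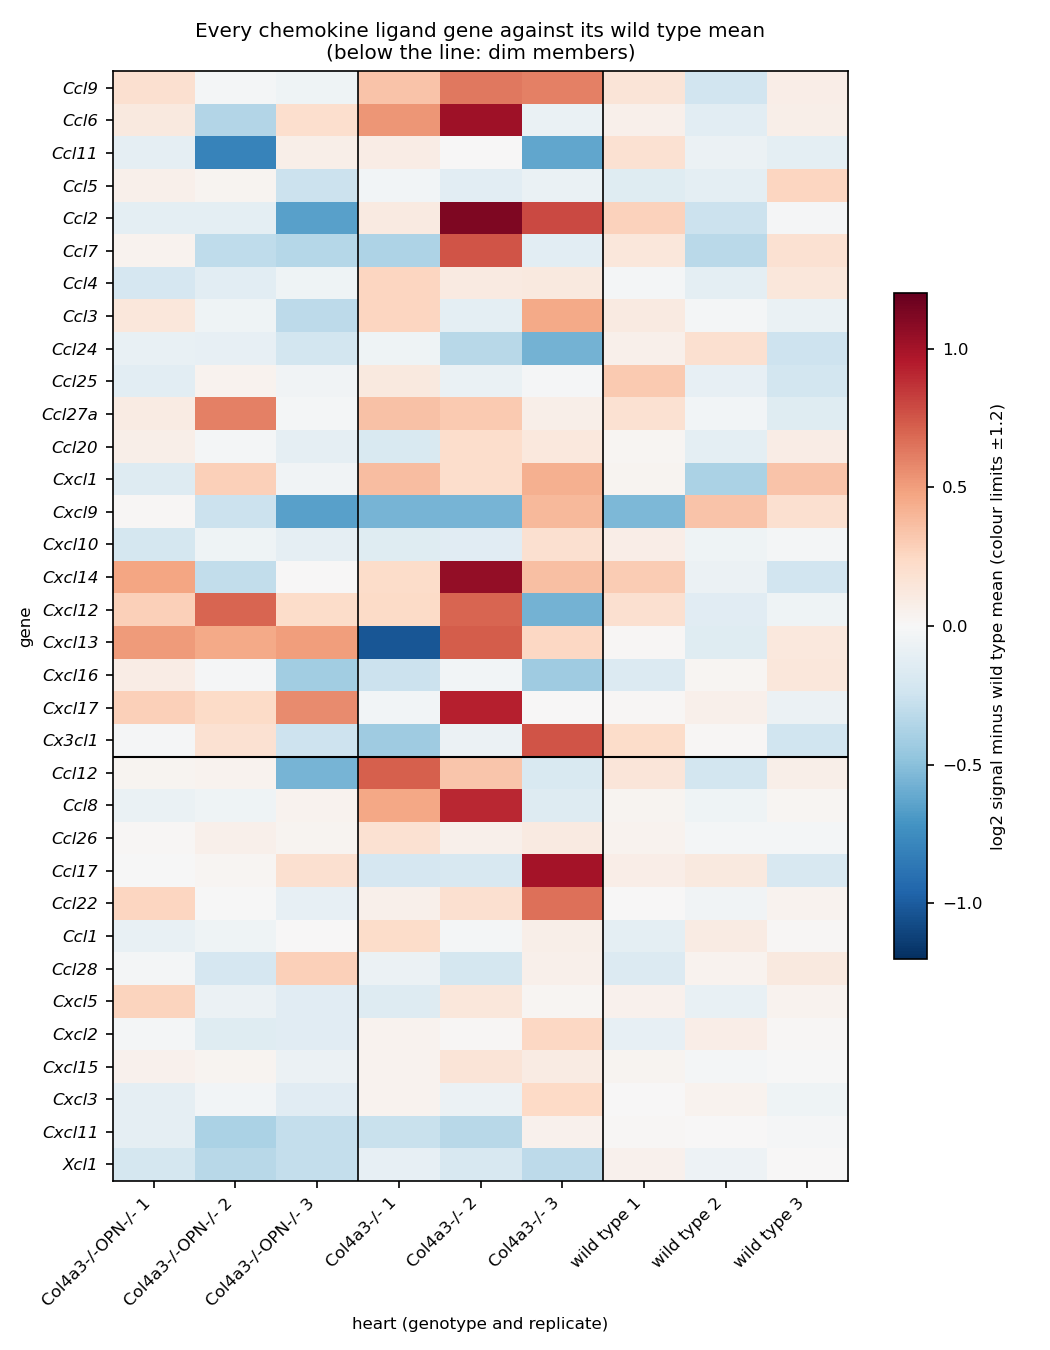
Log2 signal of each of the 34 chemokine ligand genes minus its own wild type mean (colour, red higher and blue lower), tested members above the black line and dim ones under it, with Col4a3-/-OPN-/- hearts left, Col4a3-/- hearts in the middle and wild type hearts right. Col4a3-/- replicates 2 and 3 each hold the highest value of 10 members, while Ccl2 and Ccl9 are high in both.

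Among the 12 inflammatory CC ligands, 9 were tested and 3 were dim. Ccl2, the main attractant of CCR2-bearing monocytes (probe set 17254041), had log2 signals of 5.57, 5.57 and 5.04 in Col4a3-/-OPN-/- hearts, 5.79, 6.81 and 6.48 in Col4a3-/- hearts and 5.96, 5.43 and 5.67 in wild type hearts. Both of the highest values were in Col4a3-/- replicates 2 and 3, all Col4a3-/-OPN-/- hearts lay below all Col4a3-/- hearts, and Col4a3-/- replicate 1 lay within the wild type range. The signal of Ccl2 averaged 5.40 ± 0.31 in Col4a3-/-OPN-/- hearts, 6.36 ± 0.52 in Col4a3-/- hearts and 5.69 ± 0.27 in wild type hearts (SD, n = 3 each). It was 1.59-fold in Col4a3-/- over wild type hearts (log2 difference 0.67, SE 0.25, limma adjusted p = 0.51, unadjusted p = 0.0208). It was 1.96-fold lower in Col4a3-/-OPN-/- than in Col4a3-/- hearts (log2 difference -0.97, SE 0.25, limma adjusted p = 0.177, unadjusted p = 0.0026), the largest difference of any tested member in any comparison. Neither difference passed adjustment. Col4a3-/-OPN-/- hearts differed from wild type hearts by -0.30 (SE 0.25). Without Col4a3-/- replicate 2 the Col4a3-/- minus wild type difference was 0.45, without replicate 3 it was 0.61 and without replicate 1 it was 0.96; that of Col4a3-/-OPN-/- minus Col4a3-/- was -0.74, -0.91 and -1.25 without the same hearts.

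Ccl9, a ligand of CCR1 made by macrophages and other myeloid cells in mice (probe set 17266952), had 8.85, 8.62 and 8.60 in Col4a3-/-OPN-/- hearts, 8.99, 9.28 and 9.25 in Col4a3-/- hearts and 8.80, 8.42 and 8.73 in wild type hearts. All Col4a3-/- hearts lay above all hearts of both other groups, whose ranges overlapped. The means were 8.69 ± 0.14 in Col4a3-/-OPN-/- hearts, 9.17 ± 0.16 in Col4a3-/- hearts and 8.65 ± 0.20 in wild type hearts (SD, n = 3 each). Limma gave a log2 difference of 0.53 for Col4a3-/- minus wild type (SE 0.15, adjusted p = 0.45) and of -0.49 for Col4a3-/-OPN-/- minus Col4a3-/- (SE 0.15, adjusted p = 0.236). For Col4a3-/-OPN-/- minus wild type it was 0.040 (SE 0.15). Among the 21 tested members, Ccl9 alone was set apart from both other groups in this way. Of all tested probe sets, 12.5% did not overlap in Col4a3-/- minus wild type and 16.5% in Col4a3-/-OPN-/- minus Col4a3-/-. The share without overlap in both was not counted. The differences of Ccl9 past an unadjusted p of 0.05 failed the adjustment over 13650 probe sets. Without Col4a3-/- replicate 2 or 3 the Col4a3-/- minus wild type difference of Ccl9 was 0.47 or 0.49.

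Ccl6, the neighbour of Ccl9 on chromosome 11 and likewise a ligand of CCR1 in mice, had 7.44, 6.98 and 7.53 in Col4a3-/-OPN-/- hearts, 7.86, 8.35 and 7.25 in Col4a3-/- hearts and 7.39, 7.20 and 7.40 in wild type hearts. Col4a3-/- replicates 1 and 2 were above every other heart, while replicate 3 lay inside the wild type range. The log2 difference was 0.49 (SE 0.25) for Col4a3-/- minus wild type and -0.50 (SE 0.25) for Col4a3-/-OPN-/- minus Col4a3-/-, with limma adjusted p = 0.632 and 0.415. Ccl7, a monocyte attractant that also binds CCR2, had 5.58, 5.24 and 5.21 in Col4a3-/-OPN-/- hearts, 5.18, 6.30 and 5.42 in Col4a3-/- hearts and 5.68, 5.22 and 5.73 in wild type hearts. Its single high heart was Col4a3-/- replicate 2, and the other 8 hearts of Ccl7 lay between 5.18 and 5.73. Ccl12, a further CCR2 ligand of mice, and Ccl8, an attractant of monocytes and T cells, lie near it on chromosome 11 and were dim. Ccl8 reached 5.42 and 5.87 in Col4a3-/- replicates 1 and 2, against 4.81 to 5.005 in the other 7 hearts. Ccl12 reached 5.77 and 5.39 in the same replicates, against 4.50 to 5.20 in the others. These 4 neighbours peaked in different Col4a3-/- hearts, Ccl2, Ccl7 and Ccl8 in replicate 2 and Ccl12 in replicate 1.

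Ccl3 and Ccl4, made by activated macrophages and T cells, lay close to the level for testing. Ccl4 had 5.28, 5.36 and 5.43 in Col4a3-/-OPN-/- hearts, 5.74, 5.60 and 5.60 in Col4a3-/- hearts and 5.46, 5.37 and 5.62 in wild type hearts. Every Col4a3-/-OPN-/- heart was below every Col4a3-/- heart, while Col4a3-/- and wild type hearts overlapped. The log2 difference was -0.29 (SE 0.10, limma adjusted p = 0.289, unadjusted p = 0.016). Ccl3 had 5.53, 5.34 and 5.08 in Col4a3-/-OPN-/- hearts, 5.65, 5.27 and 5.85 in Col4a3-/- hearts and 5.50, 5.37 and 5.31 in wild type hearts, with its lowest and highest hearts in Col4a3-/-OPN-/- replicate 3 and Col4a3-/- replicate 3. Ccl5, which is carried by T cells and platelets, had 6.06, 6.03 and 5.74 in Col4a3-/-OPN-/- hearts, 5.97, 5.87 and 5.91 in Col4a3-/- hearts and 5.86, 5.88 and 6.25 in wild type hearts, and the groups overlapped in every comparison.

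The eotaxins Ccl11, Ccl24 and Ccl26 are ligands of CCR3 on eosinophils. Ccl11 had 7.51, 6.81 and 7.69 in Col4a3-/-OPN-/- hearts, 7.71, 7.63 and 6.997 in Col4a3-/- hearts and 7.80, 7.55 and 7.51 in wild type hearts. Its lowest hearts were Col4a3-/-OPN-/- replicate 2 and Col4a3-/- replicate 3. Ccl24 had 5.36, 5.34 and 5.23 in Col4a3-/-OPN-/- hearts, 5.39, 5.11 and 4.87 in Col4a3-/- hearts and 5.50, 5.63 and 5.19 in wild type hearts, and was the only tested member lower in Col4a3-/- than in wild type hearts at an unadjusted p under 0.05 (log2 difference -0.32, SE 0.14, unadjusted p = 0.049, limma adjusted p = 0.596), with overlap between the groups. Its difference was -0.19 without Col4a3-/- replicate 3 and -0.45 without replicate 1. Ccl26 was dim in all hearts (4.76 to 4.96). Over the 12 inflammatory CC ligands, the difference of means was positive in 9 for Col4a3-/- minus wild type and negative in 10 for Col4a3-/-OPN-/- minus Col4a3-/-, with medians of 0.18 and -0.29. For Col4a3-/-OPN-/- minus wild type it was negative in 10, with a median of -0.10. Over all probe sets with 1 symbol, 51.1%, 48.0% and 48.8% were positive in these comparisons, with medians of 0.0030, -0.0060 and -0.0030. Many genes of this class are neighbours, and no test was made over it.

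**Figure D3:**
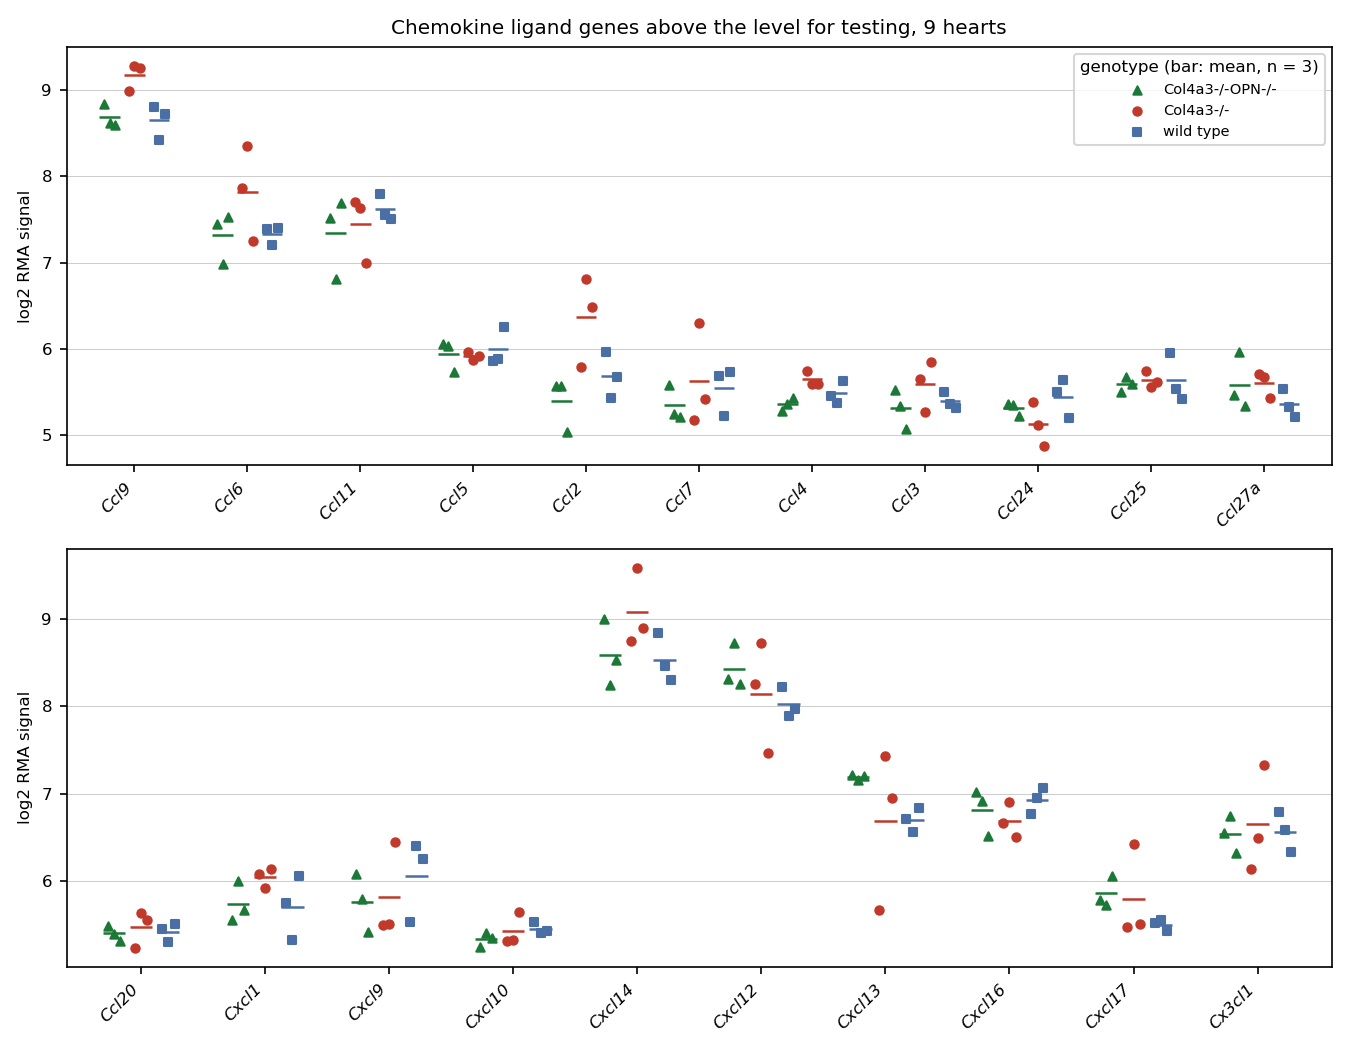
Log2 signal of the 21 tested chemokine ligand genes in each heart (points; bars are means of 3 hearts), with Col4a3-/-OPN-/- hearts left, Col4a3-/- hearts in the middle and wild type hearts right of each gene. Ccl9 is the gene whose 3 Col4a3-/- points lie above both other groups, and in Ccl7, Cxcl14 and Cxcl17 a single Col4a3-/- heart (replicate 2) lies above the rest.

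Markers of the myeloid cells that make and follow these ligands were highest in 1 of the hearts with high ligand signals. The mean of the 12 macrophage and monocyte markers, all above 5.21, ranged over 7.003 to 7.49 in Col4a3-/-OPN-/- hearts, 7.19 to 7.71 in Col4a3-/- hearts and 7.01 to 7.21 in wild type hearts. Its highest heart was Col4a3-/- replicate 2, the heart in which Ccl2, Ccl6, Ccl7, Ccl8 and Ccl9 peaked and which also held the airway and brown fat signals above. The next highest was Col4a3-/-OPN-/- replicate 1 (7.49), where Ccl2 and Ccl9 were below every Col4a3-/- heart. Of the 12 markers, 10 lay higher in Col4a3-/- than in wild type hearts (median 0.22), 5 were positive for Col4a3-/-OPN-/- minus Col4a3-/- (median -0.057) and 12 for Col4a3-/-OPN-/- minus wild type (median 0.14). Cd68, a lysosomal protein of macrophages on this list, ranged over 7.34 to 8.53 in the 9 hearts. Not every marker peaked in Col4a3-/- replicate 2. Ccr2, on the same list and given below, was higher in Col4a3-/-OPN-/- replicate 1. The part of macrophage number, other tissue or sex in the chemokine signals was not tested. In bulk hearts, fewer cells of a type and less RNA per cell cannot be told apart. Smooth muscle markers averaged 8.15 to 8.42 in Col4a3-/-OPN-/- hearts, 7.04 to 7.55 in Col4a3-/- hearts and 8.30 to 8.46 in wild type hearts. This mean was lower in Col4a3-/- hearts without overlap with either group. Singly, 4 of 4 markers did not overlap in Col4a3-/- minus wild type (against 12.5% of all tested probe sets). In Col4a3-/-OPN-/- minus Col4a3-/- 3 of 4 did not (against 16.5%). Unlike the chemokine ligands, 1 of these markers was called there (limma adjusted p = 0.0104), against 0.044% of all. Atrial markers averaged 9.97 to 10.12 in Col4a3-/-OPN-/- hearts, 8.70 to 9.99 in Col4a3-/- hearts and 10.21 to 10.41 in wild type hearts, with the lowest values in Col4a3-/- replicates 1 and 3. Their part in the chemokine signals was not tested either.

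The ELR+ CXC ligands, a class that attracts neutrophils mainly through CXCR2, were dim apart from Cxcl1. Of 5 members only Cxcl1 was tested. It had 5.55, 5.995 and 5.66 in Col4a3-/-OPN-/- hearts, 6.08, 5.92 and 6.13 in Col4a3-/- hearts and 5.74, 5.32 and 6.05 in wild type hearts. Its log2 difference was 0.34 (SE 0.18) for Col4a3-/- minus wild type and -0.30 (SE 0.18) for Col4a3-/-OPN-/- minus Col4a3-/-, with limma adjusted p = 0.641 and 0.495. All Col4a3-/- hearts were at or above 5.92, but 1 heart of each other group reached that level. The dim members were Cxcl2 (4.51 to 4.90), Cxcl3 (4.34 to 4.71), Cxcl5 (4.77 to 5.20) and Cxcl15 (4.45 to 4.68). Of 8 neutrophil markers, 2 were above 5.21, and S100a8, S100a9, Ly6g, Mpo, Ngp and Retnlg were dim. The marker mean was 4.99 to 5.14 in Col4a3-/-OPN-/- hearts, 4.94 to 5.19 in Col4a3-/- hearts and 4.96 to 5.09 in wild type hearts.

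Genes for these ligands are classic targets of NF-kappa B, a transcription factor set free by TNF and interleukin 1, and promoters that hold its motif are shown for the neighbours Cxcl1, Cxcl2 and Cxcl3, for Cxcl10 and for Ccl9. Stretches just upstream of the start of transcription, 5′ to 3′ on the gene's strand, come from RefSeq on GRCm38.p6. Capitals mark matches to the kappa B motif, and in Cxcl10 also the interferon-stimulated response element, searched as GAAA, any 2 bases and GAAA.
Cxcl1, chr5:90891125-90891244, + strand: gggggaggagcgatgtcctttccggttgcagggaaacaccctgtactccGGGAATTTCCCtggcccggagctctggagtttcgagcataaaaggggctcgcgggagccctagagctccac
Cxcl2, chr5:90903779-90903898, + strand: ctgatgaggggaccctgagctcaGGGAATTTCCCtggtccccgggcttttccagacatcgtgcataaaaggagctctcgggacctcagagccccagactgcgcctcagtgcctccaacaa
Cxcl3, chr5:90785981-90786100, + strand: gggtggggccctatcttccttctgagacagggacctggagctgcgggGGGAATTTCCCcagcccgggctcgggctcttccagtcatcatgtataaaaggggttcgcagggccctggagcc
Cxcl10, chr5:92348890-92349139, - strand: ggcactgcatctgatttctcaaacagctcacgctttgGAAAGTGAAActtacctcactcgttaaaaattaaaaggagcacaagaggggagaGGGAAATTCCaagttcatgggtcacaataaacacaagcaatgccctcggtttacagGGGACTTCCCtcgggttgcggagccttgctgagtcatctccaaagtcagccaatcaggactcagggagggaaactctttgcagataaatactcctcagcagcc
Ccl9, chr11:83578637-83578756, - strand: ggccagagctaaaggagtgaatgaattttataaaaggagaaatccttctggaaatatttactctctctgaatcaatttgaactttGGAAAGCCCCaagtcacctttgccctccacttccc
In Cxcl1, Cxcl2 and Cxcl3 the kappa B match is the same run of letters and matches on both strands. In Cxcl10 the first capital run is the interferon-stimulated response element and the next pair are kappa B matches, and in Ccl9 the match lies on the opposite strand. Windows of 250 bases before the start were searched on both strands. No window was at hand for Ccl2, Ccl4, Ccl5, Ccl7, Ccl11, Ccl24, Ccl26, Cxcl5, Cxcl11, Cxcl16 and Cxcl17, so these were not searched. Windows were at hand for the other 23 of 34 members, some with more than 1 window. The kappa B motif was in 6 of their 26 windows (23.1%), those of Ccl9, Ccl20, Cxcl1, Cxcl2, Cxcl3 and Cxcl10, against 3.9% of 32851 promoter windows. The interferon-stimulated response element was in 2 of 26 windows, those of Cxcl10 and Cxcl14 (7.69%, against 2.98%), and the gamma-activated site TTCNNNGAA, which reads the same on both strands, in 2, those of Ccl17 and Cxcl14 (7.69%, against 7.02%). A match is a description of the letters and does not show that a factor binds there.

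Genes that induce or answer NF-kappa B were described beside them. Of 25 measured genes of an inducer and response list, 16 had their highest signal in Col4a3-/- replicate 3 and 6 in replicate 2. Sele, an endothelial adhesion molecule for leukocytes, had 5.27, 5.21 and 5.13 in Col4a3-/-OPN-/- hearts, 5.35, 5.39 and 8.26 in Col4a3-/- hearts and 5.31, 5.30 and 5.53 in wild type hearts. Saa3, an acute phase protein, had 5.52, 4.69 and 5.04 in Col4a3-/-OPN-/- hearts, 4.70, 5.83 and 9.10 in Col4a3-/- hearts and 4.99, 4.78 and 5.09 in wild type hearts. Both stood more than 2 log2 units above every other heart in Col4a3-/- replicate 3 alone, as did Icam1 and Selp, further adhesion molecules of endothelium that were picked after their values were seen (9.63 and 8.58 there, against 6.19 to 7.04 and 5.51 to 6.15 elsewhere). The list's mean was 6.21 to 6.45 in Col4a3-/-OPN-/- hearts, 6.20 to 7.30 in Col4a3-/- hearts and 6.24 to 6.34 in wild type hearts. Of 23 tested members 0 were called in each comparison; 21 lay higher in Col4a3-/- than in wild type hearts (median 0.30, against -0.023 over all tested probe sets) and for Col4a3-/-OPN-/- minus Col4a3-/- 20 lay lower (median -0.31, against 0.043). These counts rested in part on 1 heart: without Col4a3-/- replicate 3, 15 of 23 lay higher in Col4a3-/- than in wild type hearts (median 0.095), and for Col4a3-/-OPN-/- minus Col4a3-/- 7 of 23 were positive (median -0.11). The lowest differences for Col4a3-/- minus wild type were those of Nfkbie, an inhibitor of NF-kappa B (-0.029), and Tnfrsf1a, a TNF receptor (-0.022). For Col4a3-/-OPN-/- minus Col4a3-/- the highest were those of Il1r1, the interleukin 1 receptor (0.17), and Nfkbia, another inhibitor (0.067), and the lowest those of Saa3 (-1.46) and Sele (-1.13). Saa3 reached the level for testing through Col4a3-/- replicate 3, and its means of 5.08 ± 0.42 in Col4a3-/-OPN-/- and 4.96 ± 0.16 in wild type hearts (SD, n = 3 each) lie below that level. The inducers Il6 and Il1a were dim.

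**Figure D4:**
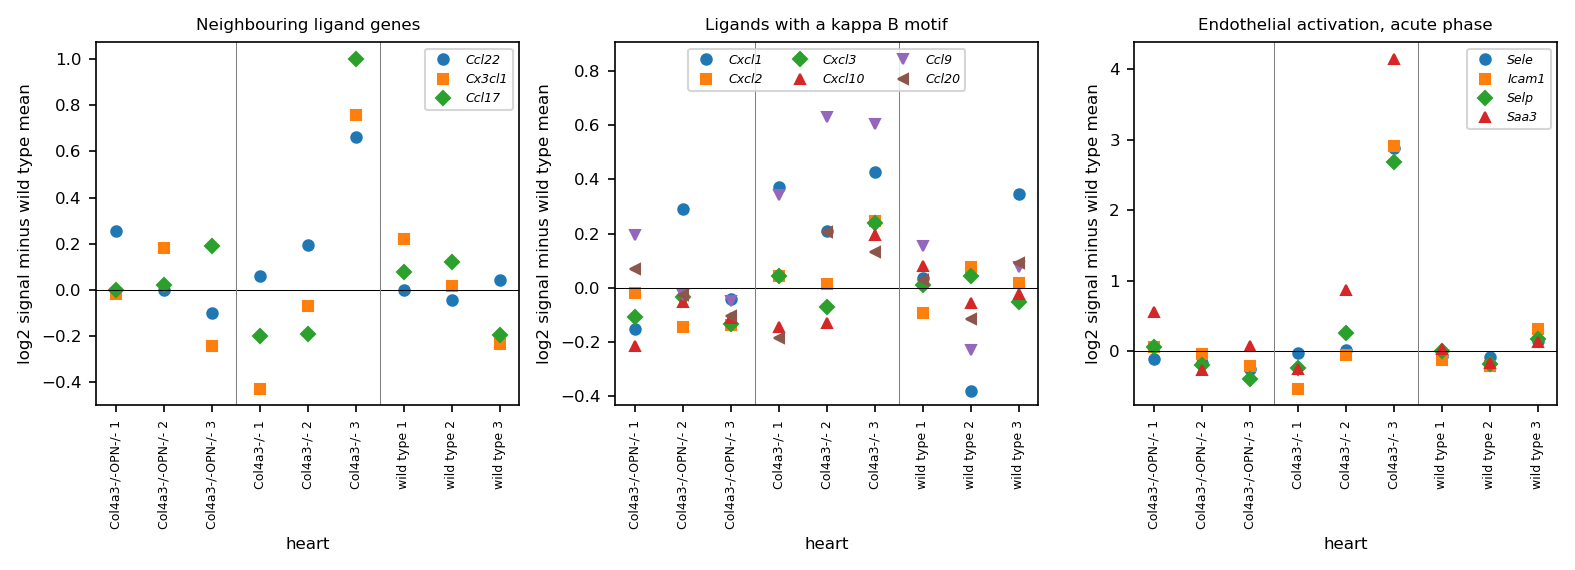
Log2 signal minus the wild type mean in each of the 9 hearts, on axes of different length. Left are 3 neighbouring ligand genes, and right 4 genes of endothelial activation or the acute phase. In the middle are the 6 ligands with a kappa B motif in the promoter windows searched, which were lacking for members such as Ccl2. The genes left and right were picked for their high point in Col4a3-/- replicate 3, Ccl17, Ccl22, Cxcl2 and Cxcl3 are dim, and in the middle Ccl9 and Ccl20 have their highest point in Col4a3-/- replicate 2.

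Of the 3 ligands of CXCR3, 2 were tested and none was called. Cxcl9, which is induced by interferon gamma, had 6.07, 5.80 and 5.41 in Col4a3-/-OPN-/- hearts, 5.50, 5.50 and 6.45 in Col4a3-/- hearts and 5.52, 6.40 and 6.25 in wild type hearts. High and low hearts occurred in each group, and its log2 difference was -0.24 (SE 0.29) for Col4a3-/- minus wild type. Cxcl10, induced by both interferon and NF-kappa B, had 5.24, 5.40 and 5.34 in Col4a3-/-OPN-/- hearts, 5.31, 5.32 and 5.65 in Col4a3-/- hearts and 5.53, 5.40 and 5.43 in wild type hearts. Cxcl11, which the reference lists as a transcribed pseudogene, was dim (4.84 to 5.27). Of 15 tested genes of the interferon gamma response, 0 were called in each comparison, and 12 lay lower in Col4a3-/- than in wild type hearts (median -0.26, against -0.023 over all; -0.064 without Col4a3-/- replicate 3). Gbp7, an interferon-induced GTPase, had the largest such difference, with 6.94, 7.20 and 7.25 in Col4a3-/-OPN-/- hearts, 6.43, 6.36 and 5.81 in Col4a3-/- hearts and 6.96, 6.98 and 7.47 in wild type hearts; its Col4a3-/- hearts lay below all others (log2 difference -0.94, SE 0.20, limma adjusted p = 0.345), next to Ifngr2 (-0.42), a chain of the interferon gamma receptor. Socs1, a feedback inhibitor of cytokine signalling, and Irf8, a myeloid transcription factor, were on the higher side (0.31 and 0.19). Groups did not overlap for 1 of the 15, Gbp7, in Col4a3-/- minus wild type (6.67%, against 12.5% of all tested probe sets). The count was 5 in Col4a3-/-OPN-/- minus Col4a3-/- (33.3%, against 16.5%) and 0 in Col4a3-/-OPN-/- minus wild type (against 13.2%). For Col4a3-/-OPN-/- minus Col4a3-/-, 11 of the 15 lay higher (median 0.27, against 0.043 over all), with a count of 10 without Col4a3-/- replicate 3 (median 0.15), led by Gbp7 (0.93) and Irgm2 (0.47), a GTPase of host defence, with Socs1 (-0.38) and Irf8 (-0.12) lowest.

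The homeostatic CXC ligands were all tested, and none passed. Cxcl12, which retains stem cells and leukocytes through CXCR4, had 8.31, 8.72 and 8.25 in Col4a3-/-OPN-/- hearts, 8.25, 8.72 and 7.46 in Col4a3-/- hearts and 8.22, 7.89 and 7.97 in wild type hearts. Every Col4a3-/-OPN-/- heart was above every wild type heart, with a difference of 0.40 log2 units (SE 0.27, limma adjusted p = 0.999), while the Col4a3-/- hearts spanned both. Cxcl13, a B cell attractant through CXCR5, had 7.21, 7.15 and 7.20 in Col4a3-/-OPN-/- hearts, 5.67, 7.43 and 6.95 in Col4a3-/- hearts and 6.71, 6.56 and 6.83 in wild type hearts. The 3 Col4a3-/-OPN-/- hearts lay close together and above all wild type hearts (log2 difference 0.49, SE 0.34), and Col4a3-/- replicate 1 was the lowest heart. Of 4 measured B cell markers 0 were above 5.21. Cxcl14, an epithelial and fibroblast chemokine whose receptor is debated, had 9.0, 8.24 and 8.53 in Col4a3-/-OPN-/- hearts, 8.75, 9.59 and 8.89 in Col4a3-/- hearts and 8.83, 8.46 and 8.30 in wild type hearts, with its highest heart in Col4a3-/- replicate 2. Its log2 difference was 0.55 (SE 0.25) for Col4a3-/- minus wild type and -0.49 (SE 0.25) for Col4a3-/-OPN-/- minus Col4a3-/-. Fibroblast markers (mean of 7) moved with Cxcl14 and Cxcl12 in part, with 8.54 to 8.97 in Col4a3-/-OPN-/- hearts, 8.75, 9.35 and 7.76 in Col4a3-/- hearts and 8.70 to 8.94 in wild type hearts. They were highest in Col4a3-/- replicate 2, where Cxcl14 peaked, and lowest in Col4a3-/- replicate 3, where Cxcl12 was lowest and Ccl11 low. Other hearts went apart. In Col4a3-/- replicate 3 Cxcl14 was 8.89, above every wild type heart. In Col4a3-/-OPN-/- replicate 2 Cxcl12 was 8.72 and Ccl11 had its lowest value, with fibroblast markers at 8.79. The part of fibroblasts in these signals was not tested. Cxcl16, a membrane-bound ligand of CXCR6, had 7.02, 6.92 and 6.51 in Col4a3-/-OPN-/- hearts, 6.67, 6.90 and 6.50 in Col4a3-/- hearts and 6.77, 6.95 and 7.07 in wild type hearts, with overlap in every comparison. Cxcl17, a mucosal chemokine of airway epithelium, had 5.78, 5.73 and 6.06 in Col4a3-/-OPN-/- hearts, 5.47, 6.43 and 5.50 in Col4a3-/- hearts and 5.51, 5.55 and 5.42 in wild type hearts. It was highest in Col4a3-/- replicate 2 and then in the 3 Col4a3-/-OPN-/- hearts. The hearts with raised Scgb1a1 were Col4a3-/- replicate 2 and Col4a3-/-OPN-/- replicates 1 and 3, which were also the 3 hearts highest in Cxcl17. Scgb1a1 was 1 of 5 lung epithelium markers, of which 3 were dim. Of these 5, 2 lay higher and 3 lower in Col4a3-/-OPN-/- than in wild type hearts (median difference -0.0057). All 5 lay higher in Col4a3-/- than in wild type hearts (median difference 0.32). Whether airway tissue carried Cxcl17 into these samples was not tested.

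Among the 7 homeostatic and dual CC ligands, 3 were tested. Ccl25, which guides T cells in thymus and gut through CCR9, ranged over 5.41 to 5.95 in the 9 hearts, and Ccl20, the ligand of CCR6, over 5.24 to 5.63. Ccl27a, a skin chemokine for CCR10, ranged over 5.21 to 5.97. Another probe set of Ccl27a, also above the level for testing (mean 5.40), differed in sign. Its Col4a3-/- minus wild type difference was -0.26, against 0.24 for the brighter one. Its groups did not overlap there (limma unadjusted p = 0.0385, adjusted p = 0.573), while those of the brighter one did (limma unadjusted p = 0.164, adjusted p = 0.710). No direction is therefore given for Ccl27a. Ccl1 (4.95 to 5.28) and Ccl28 (4.87 to 5.37) were dim and showed no heart apart from the rest.

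Ccl17, Ccl22 and Cx3cl1 lie side by side on mouse chromosome 8, with no other protein-coding gene between them in the reference, and all peaked in Col4a3-/- replicate 3. These genes were picked for this shared high heart, and Ccl17 and Ccl22 were dim and not tested. The same heart held the highest value of 21.3% of all tested probe sets and of 15.0% of the dim ones. Ccl17 and Ccl22 are ligands of CCR4 made by dendritic cells and macrophages, and Cx3cl1 (fractalkine) is a membrane-bound ligand of endothelium and neurons for CX3CR1. Ccl17 was 6.02 there, against 4.82 to 5.21 in the other 8 hearts. Ccl22 was 5.64, against 4.88 to 5.24, and Cx3cl1 was 7.32, against 6.14 to 6.78. Cx3cl1 otherwise had no lead in the Col4a3-/- group, with 6.55, 6.74 and 6.32 in Col4a3-/-OPN-/- hearts, 6.14, 6.50 and 7.32 in Col4a3-/- hearts and 6.78, 6.58 and 6.33 in wild type hearts. Ccl25, the remaining member on that chromosome, lay 5.62 in the same heart, within its range elsewhere. Runs of neighbouring members also occur on chromosomes 11 (Ccl2, Ccl7, Ccl11, Ccl12, Ccl8 and Ccl1 in order, and Ccl5, Ccl9, Ccl6, Ccl3 and Ccl4) and 5 (Cxcl3, Cxcl15, Cxcl1 and Cxcl2). In these runs the highest heart was not shared throughout: in the first run it was Col4a3-/- replicate 2 for Ccl2, Ccl7 and Ccl8, Col4a3-/- replicate 1 for Ccl12 and Ccl1, and wild type replicate 1 for Ccl11. Xcl1, the C family ligand of cross-presenting dendritic cells, was dim (4.77 to 5.15).

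Receptors for these ligands were mostly dim: of 22 measured, 9 were tested, and 0 were called in each comparison. For Col4a3-/- minus wild type the largest differences were those of Ccrl2, a chemerin-presenting receptor (0.52), and Ackr3, a scavenger of Cxcl12 (0.44), and the most negative those of Cxcr4, its signalling receptor (-0.20), and Cxcr2 (-0.16). Ackr3 (probe set 17215605) had 7.17, 7.12 and 7.11 in Col4a3-/-OPN-/- hearts, 7.15, 6.98 and 7.13 in Col4a3-/- hearts and 6.79, 6.68 and 6.48 in wild type hearts. All hearts of both knockout groups lay above all wild type hearts. Its differences from wild type were 0.49 (SE 0.13, unadjusted p = 0.00311, limma adjusted p = 0.999) in Col4a3-/-OPN-/- hearts and 0.44 (SE 0.13, unadjusted p = 0.00586, limma adjusted p = 0.451) in Col4a3-/- hearts. Ackr2, a scavenger that takes up inflammatory CC ligands such as Ccl2 (probe set 17523371), had 6.25, 6.25 and 6.18 in Col4a3-/-OPN-/- hearts, 6.62, 6.74 and 6.70 in Col4a3-/- hearts and 6.47, 6.35 and 6.48 in wild type hearts. Its order was Col4a3-/-OPN-/- below wild type below Col4a3-/-, with no overlap between any of the groups. The difference of Col4a3-/-OPN-/- from Col4a3-/- hearts was -0.46 (SE 0.11, limma adjusted p = 0.164, unadjusted p = 0.00183) and was the most negative of the tested receptors, next to Ccrl2 (-0.27); Cx3cr1 (0.19) and Ccr2 (0.10), the receptors of Cx3cl1 and Ccl2, were the most positive. Ccr2 itself had 5.80, 5.31 and 5.55 in Col4a3-/-OPN-/- hearts, 5.60, 5.66 and 5.09 in Col4a3-/- hearts and 5.24, 4.998 and 5.59 in wild type hearts, with overlap throughout. Groups did not overlap for 2 of the 9 tested receptors in Col4a3-/- minus wild type (22.2%, against 12.5% of all tested probe sets). The count was 1 in Col4a3-/-OPN-/- minus Col4a3-/- (11.1%, against 16.5%) and 3 in Col4a3-/-OPN-/- minus wild type (33.3%, against 13.2%).

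**Figure D5:**
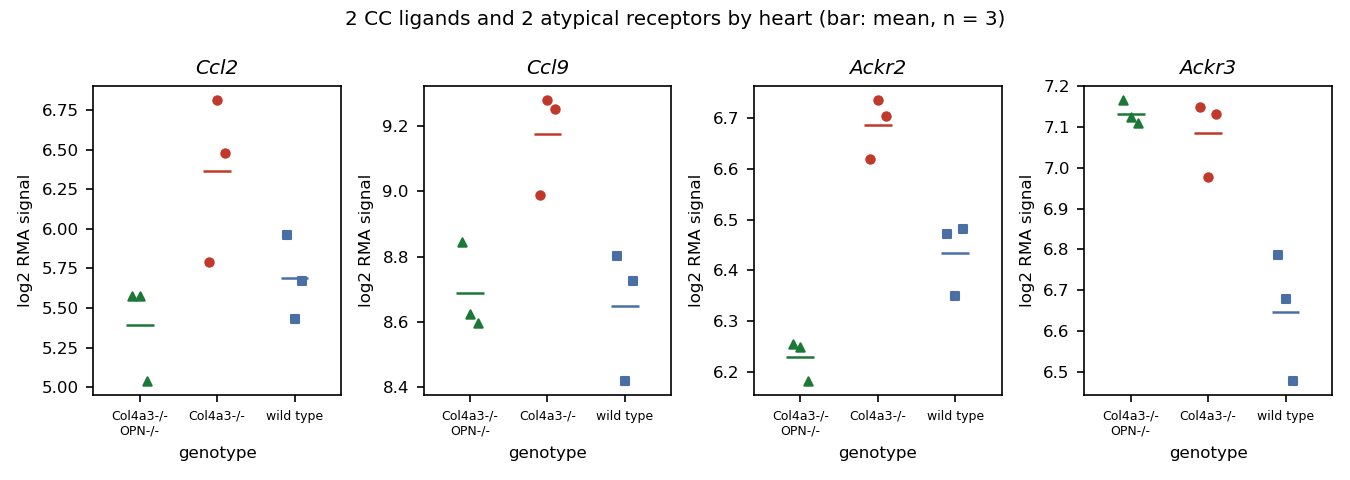
Log2 signal of the ligands Ccl2 and Ccl9 and of the scavenging receptors Ackr2 and Ackr3 in each heart (points; bars are means of 3 hearts) by genotype, on axes that do not start at 0. Ackr2 separates all 3 genotypes, Ackr3 both knockout groups from wild type, and Ccl9 the Col4a3-/- hearts from both other groups. In Ccl2, 1 Col4a3-/- heart lies within the wild type range. Of all tested probe sets, 12.5% to 16.5% had groups without overlap in a single comparison. The share separated in more than 1 comparison, as for Ackr2, Ackr3 and Ccl9, was not counted. Each gene shown had an unadjusted p under 0.05 (limma) in 1 comparison or more.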

How the data were processed

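RNA from 9 mouse hearts, 3 of each genotype, was measured on 1 array each. Per the submitters' processing notes, the authors made the deposited log2 signals with RMA, in a version that the labels do not state. A small-RNA labelling kit stands in the labels although the probe sets are those of a gene array, which leaves the labelling uncertain. Of 33793 probe sets, 23521 had 1 symbol, 1814 had several and 8458 were not listed; those for Ccl19 and Ccl21 carried several and were not used. All 34 members had their gene identifier in the RefSeq table of GRCm38.p6.

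All 9 arrays entered 1 limma fit (limma 3.58.1 under R 4.3.3; lmFit, then eBayes with trend), with Benjamini-Hochberg adjustment over 13650 probe sets with 1 symbol and a mean above 5.21, called at 0.05. P-values are two-sided. Precision is limited by the number of arrays, and 1 spread is shared among the genotypes. The fit was tested on simulated data. The members and gene lists were chosen with earlier results of these data known. Every member may be named; of the receptor, inducer and interferon gamma lists, the 2 highest and 2 lowest differences of Col4a3-/- minus wild type and Col4a3-/-OPN-/- minus Col4a3-/- are. Alternatives were 2 scalings, 2 filters, 2 variance models, a fit of only the arrays compared, a replicate block, a Y-linked covariate and each array left out. Proteins were not used here, and 11 members had no promoter window.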

Additional observations from a re-analysis of the deposited data

How the results depend on the processing

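Under 18 alternatives, 0 members were called in each comparison (17 alternatives for the F-test), and the differences of Ccl9, Ccl2, Ccl4, Ccl24, Ackr2 and Ackr3 named above kept their sign. Leaving out each array, the median over tested members ranged from 0.026 to 0.17 for Col4a3-/- minus wild type, from -0.19 (without Col4a3-/- replicate 1) to -0.050 for Col4a3-/-OPN-/- minus Col4a3-/-, and from -0.091 to 0.037 for Col4a3-/-OPN-/- minus wild type; the cause was not tested. Adjusted p ranged over 0.147 to 0.440 for Ccl9 and 0.0794 to 0.406 for Ccl2 in Col4a3-/-OPN-/- minus Col4a3-/-. The stricter filter left Ccl2, Ccl4 and Ccl24 untested. The number of members at an unadjusted p under 0.05 ranged over 1 to 5 for Col4a3-/- minus wild type, 1 to 7 for Col4a3-/-OPN-/- minus Col4a3-/- and 0 to 3 for the double knockout minus wild type. With a covariate of Y-linked signal, Ccl9 differed by 0.62 (SE 0.19, limma adjusted p = 0.774) in Col4a3-/- minus wild type, and Ccl2 by 0.80 (SE 0.32, limma adjusted p = 0.920). Both SE and adjusted p were larger than in the main fit (SE 0.15 and 0.25, limma adjusted p = 0.450 and 0.510). Leaving out arrays for the counts of positive differences, over members and over the inducer and interferon gamma lists, was chosen after seeing the data. Same-numbered hearts did not pair: of 9 correlations of their deviations (-0.19 to 0.23) 2 were over 0.1. With the replicate block 0 members were called, the adjusted p of Ccl2 in Col4a3-/-OPN-/- minus Col4a3-/- was 0.236, and over all probe sets 0 were called there, against 6 without it. With 3 hearts a genotype and dim probe sets near the array's floor, differences of members such as Cxcl2 were not measurable.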
